A study of Homo sapiens with 3 samples.

Results

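PLAU, PLAUR and TGFBI are 3 genes among 15625 in the expression table of a colorectal cancer line after knockdown of a circular RNA. They were taken by symbol, and were chosen by their FPKM in the knockdown libraries against the control, so their levels and fold changes are given as a description with no test. PLAU encodes urokinase, a secreted serine protease. PLAUR encodes the urokinase receptor, and TGFBI encodes a secreted matrix protein named for its induction by TGF-beta. The table holds 2 libraries labelled sh_circRAPGEF5, named library 1 and library 2, and 1 library labelled sh_control. All came from HCT116, an established human colorectal cancer line. Cells received a purchased shRNA system, directed at the circular RNA circRAPGEF5 (from the RAPGEF5 gene) or a control, and were collected at 36 or 48 h. Which library had which time is not stated. Every library, the control too, carries the genotype entry MT, which the labels do not explain. Nor is it stated if libraries 1 and 2 stand for different hairpins or cultures, or repeat the same culture. HCT116 is known to carry inactivating mutations in the type II TGF-beta receptor gene TGFBR2.

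Urokinase binds its receptor on the cell surface and there cuts plasminogen into plasmin, a broad protease that degrades fibrin and other matrix proteins. Serpins block the activators, and endocytic receptors clear the inhibited complexes. The receptor is held in the membrane by a lipid anchor and has no cytoplasmic part, so its signals pass through partners such as integrins. Urokinase and its receptor are known for high levels at the invasive edge of colorectal tumours. TGFBI protein has fasciclin-like domains, binds collagen and integrins, and is best known from inherited corneal dystrophies.

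Levels are FPKM, read fragments per kilobase of a gene scaled to library size, as the authors deposited them. Fold changes are differences of log2(FPKM + 1) from the control, which understates the change of weakly expressed genes. Depth, as the sum of the smallest whole reads that give the FPKM ratios, was 14832142 and 15758794 in knockdown libraries 1 and 2, against 14632390 in the control. Of 8 epithelial markers, 7 were tested (mean FPKM of at least 1), of which 3 were higher and 1 lower than the control in both knockdown libraries and 3 lay on opposite sides. KRT8, a keratin of simple epithelia, was at 1084 and 1694 FPKM in knockdown libraries 1 and 2, against 1031 FPKM in the control, and CDH1, E-cadherin, was at 20.3 and 26.7 FPKM against 33.1 FPKM. VIL1, a microvillus protein, was listed at 0 in both knockdown libraries and at 0.00944 FPKM in the control. The 7 leukocyte markers, of which 6 were measured, summed to 5.14 and 9.37 FPKM in knockdown libraries 1 and 2, against 5.003 in the control, and the pan-leukocyte marker PTPRC was at 0, 0.00901 and 0 FPKM. The 3 fibroblast markers measured summed to 4.71 and 8.49 FPKM in knockdown libraries 1 and 2, against 14.0 in the control. All 3 libraries are labelled as HCT116, so these markers are levels in that line and not counts of other cell types. In bulk RNA, fewer cells with a message and less of it per cell cannot be told apart.

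The promoter windows of the 3 genes are shown as a description. The genes were higher than the control in both knockdown libraries by very different amounts. Whether promoter motifs bear on these amounts was not tested. Each window holds 300 bases around an annotated start, most of them before it, from RefSeq on GRCh38.p14, 5′ to 3′ on the gene's strand. All 3 genes matched, PLAU with 2 starts. Capitals mark matches to the AP-1 motif TGANTCA, the GC box GGGCGG or the TATA box TATAAA on either strand. The PLAUR window is chr19:43670120-43670419 on the minus strand. The PLAU windows are chr10:73910360-73910659 and chr10:73910882-73911181, and the TGFBI window is chr5:136028738-136029037, all on the plus strand.
PLAUR: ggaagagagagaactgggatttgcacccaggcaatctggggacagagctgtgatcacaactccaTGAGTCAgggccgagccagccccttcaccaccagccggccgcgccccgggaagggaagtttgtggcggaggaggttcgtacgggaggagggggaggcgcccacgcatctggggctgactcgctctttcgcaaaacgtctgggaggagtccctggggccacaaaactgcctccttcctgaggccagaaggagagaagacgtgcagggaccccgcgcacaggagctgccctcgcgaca
PLAU upstream start: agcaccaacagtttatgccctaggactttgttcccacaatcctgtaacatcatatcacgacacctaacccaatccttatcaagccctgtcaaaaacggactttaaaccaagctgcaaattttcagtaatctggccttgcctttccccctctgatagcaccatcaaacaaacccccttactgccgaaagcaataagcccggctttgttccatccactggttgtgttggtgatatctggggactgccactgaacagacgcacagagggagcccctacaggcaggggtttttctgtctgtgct
PLAU downstream start: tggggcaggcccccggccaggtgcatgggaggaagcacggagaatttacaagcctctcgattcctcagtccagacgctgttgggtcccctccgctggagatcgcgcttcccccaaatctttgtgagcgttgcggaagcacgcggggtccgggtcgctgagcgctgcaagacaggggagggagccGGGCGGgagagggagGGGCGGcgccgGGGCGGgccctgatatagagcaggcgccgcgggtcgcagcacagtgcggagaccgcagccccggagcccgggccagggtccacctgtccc
TGFBI: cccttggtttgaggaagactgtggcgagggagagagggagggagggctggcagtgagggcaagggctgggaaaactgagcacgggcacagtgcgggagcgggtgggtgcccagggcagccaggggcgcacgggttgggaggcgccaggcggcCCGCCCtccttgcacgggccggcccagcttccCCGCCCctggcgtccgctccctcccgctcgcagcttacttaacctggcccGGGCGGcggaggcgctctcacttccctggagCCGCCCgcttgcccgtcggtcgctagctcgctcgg

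The PLAUR window held 1 AP-1 match, at bases -186 to -180 from its start, and no GC box match. AP-1 is the dimer of FOS and JUN family proteins. Of 35116 promoter windows in the RefSeq table, 7.71% held an AP-1 match. The downstream PLAU window held 3 GC box matches, between bases -66 and -35, and the upstream one had no match to any of the 3 motifs. The TGFBI window held 4 GC box matches, from base -98 to base 21 after the start, and no AP-1 match. GC boxes occurred in 45% of all windows and TATA boxes in 11.5%, and none of the 4 windows had a TATA box match. The matches did not overlap each other. A match is a description of letters and does not show that a factor binds there. Sequence outside these windows was not searched, so a window without a match does not show that the gene lacks such sites.

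**Figure D1:**
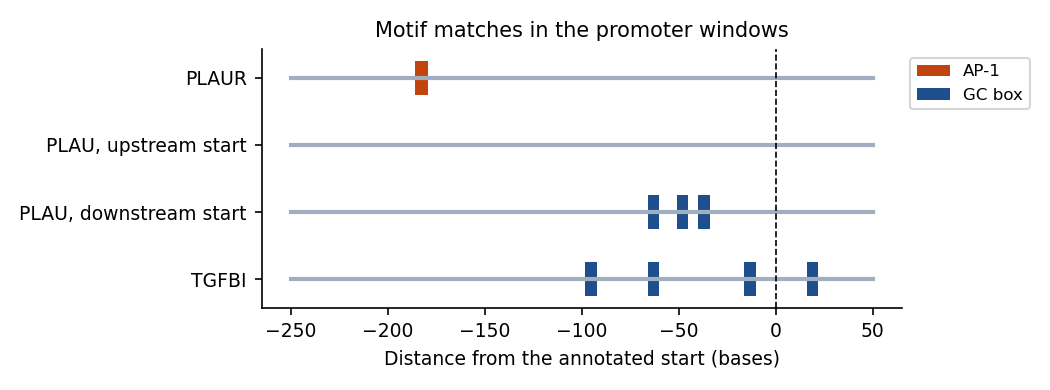
Motif matches in the 4 promoter windows by distance in bases from the annotated start (dashed line), with AP-1 matches in orange-red and GC box matches in blue. The PLAUR window has 1 AP-1 match, the downstream PLAU window 3 GC boxes, the TGFBI window 4 GC boxes and the upstream PLAU window no match.

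The receptor gene differed most of the 3 on the log2(FPKM + 1) scale, while TGFBI had the larger FPKM ratios, from few reads. PLAUR (Entrez 5329; GENCODE 29 on GRCh38, chromosome 19, 43646095 to 43670547, minus strand, 7 exons in its principal transcript) was at 13.8 FPKM in knockdown library 1 and 22.2 FPKM in knockdown library 2, against 5.33 FPKM in the control. Both knockdown libraries lay above the control, and library 2 lay above library 1. The knockdown mean was 18.0 ± 5.97 FPKM (SD, n = 2), and the control has no replicate and so no SD. The ratio to the control was 2.58 in library 1 and 4.17 in library 2. On the log2(FPKM + 1) scale the differences were 1.22 and 1.87, with a mean of 1.55.

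The smallest whole reads behind PLAUR were 715 and 1223 in knockdown libraries 1 and 2, against 273 in the control. Counting error alone gave exact 95% intervals of 2.24 to 2.98 for the ratio in library 1 and 3.65 to 4.77 in library 2. These intervals hold no variation between cultures or library preparations. As the 3 genes were chosen by these values, the intervals given for them describe counting error and test no difference. A factor common to all 3 libraries cannot be seen from ratios, so true reads may be larger and true counting intervals narrower. Among 11216 genes tested, 61 genes including PLAUR were at least as far above the control by the knockdown library nearer to it. By library, 186 genes reached the PLAUR difference in library 1 and 36 in library 2. Leukocytes also express PLAUR, but all 3 libraries are labelled as the HCT116 line. The genes listed as leukocyte markers differed among themselves in it. CD68, a lysosomal protein of macrophages, was at 3.55 and 7.50 FPKM in knockdown libraries 1 and 2, against 1.30 FPKM in the control. The pan-leukocyte marker PTPRC was at or near 0 in every library, as given above, and LYZ, lysozyme, was at 0 and 0.153 FPKM against 0.0824 FPKM. CORO1A, coronin 1A, was lower in both knockdown libraries, at 1.34 and 0.898 FPKM against 2.59 FPKM, as were CD14 at 0.119 and 0.486 FPKM against 0.683 FPKM and ITGAM at 0.128 and 0.325 FPKM against 0.349 FPKM. In level, PLAUR stood above 70.5% and 80.7% of the genes of the table in knockdown libraries 1 and 2, against 48.1% in the control.

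The protease gene differed little. PLAU (Entrez 5328; chromosome 10, 73909177 to 73917497, plus strand, 11 exons) was at 31.4 FPKM in knockdown library 1 and 25.1 FPKM in knockdown library 2, against 23.6 FPKM in the control. Both knockdown libraries were above the control, library 2 only slightly. The knockdown mean was 28.3 ± 4.46 FPKM (SD, n = 2), so the distance from its mean to the control was close to the spread between the knockdown libraries. The ratio to the control was 1.33 in library 1, with a counting interval of 1.18 to 1.51. In library 2 it was 1.07, with an interval of 0.941 to 1.21. The log2 differences were 0.40 and 0.09. Of the genes tested, 2934 were at least as far above the control by the nearer library. The smallest whole reads behind PLAU were 638 and 541 in knockdown libraries 1 and 2, against 472 in the control. Exons of PLAU overlap those of C10orf55 on the opposite strand in GENCODE 29. The strand setting of the counting is not given in the sources used here, so reads of the pair cannot be told apart with certainty. No exon of another annotated gene overlaps those of PLAUR or TGFBI.

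PLAU was the more abundant of the receptor and protease messages per length in every library, and the gap narrowed in the knockdown libraries. The ratio of PLAU to PLAUR FPKM was 2.28 in knockdown library 1 and 1.13 in knockdown library 2, against 4.43 in the control. The order of the knockdown libraries was opposite for the 2 genes, with PLAU higher in library 1 and PLAUR higher in library 2.

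TGFBI was close to the limit of detection in all 3 libraries. TGFBI (Entrez 7045; chromosome 5, 136028895 to 136063818, plus strand, 17 exons) was at 0.312 FPKM in knockdown library 1 and 0.232 FPKM in knockdown library 2, against 0.0452 FPKM in the control. Both knockdown libraries lay above the control. The knockdown mean was 0.272 ± 0.0572 FPKM (SD, n = 2). These levels rest on 14 and 11 reads in knockdown libraries 1 and 2, against 2 in the control, as the smallest whole reads. The ratio to the control was 6.91 in library 1, with a counting interval of 1.59 to 62.6, and 5.12 in library 2, with an interval of 1.12 to 47.5. With so few reads in the control, the size of the ratio is poorly known. On the log2(FPKM + 1) scale the differences were 0.33 and 0.24, which the added 1 keeps small. TGFBI fell under the mean FPKM of 1 that a gene needed to be tested, and PLAU and PLAUR passed, so 2 of the 3 genes passed the filter.

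**Figure D2:**
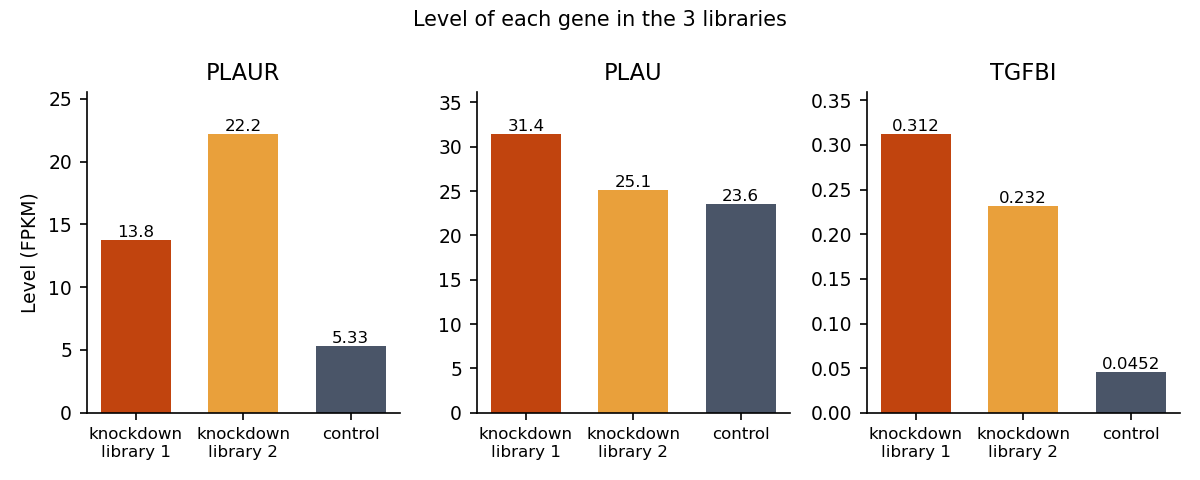
Level of PLAUR, PLAU and TGFBI in FPKM in knockdown libraries 1 and 2 and the control, 1 bar per library with its value above it and a separate axis from 0 for each gene. PLAUR is at 13.8 and 22.2 against 5.33, PLAU at 31.4 and 25.1 against 23.6, and TGFBI at 0.312 and 0.232 against 0.0452.

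All 3 genes were higher in both knockdown libraries, a direction that 31.7% of tested genes shared, since both libraries are set against the same control. PLAUR was at least 2-fold higher in both, as were 1.21% of tested genes, but not with a pseudocount of 5, where its log2 differences were 0.86 and 1.40. Over all tested genes 136 were at least 2-fold higher and 191 lower in both, and median-ratio rescaling gave 186 higher and 138 lower. PLAU and TGFBI were not 2-fold higher in both on the log2(FPKM + 1) scale. These counts used the contrast that chose the genes and are a description. Of the 11216 genes tested limma called 0.0178% of genes higher and 0% lower at an adjusted p under 0.05, with 345 genes higher and 448 lower at an unadjusted p under 0.05. With 1 control library, an exact permutation has 3 splits and cannot go below p = 0.333.

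**Figure D3:**
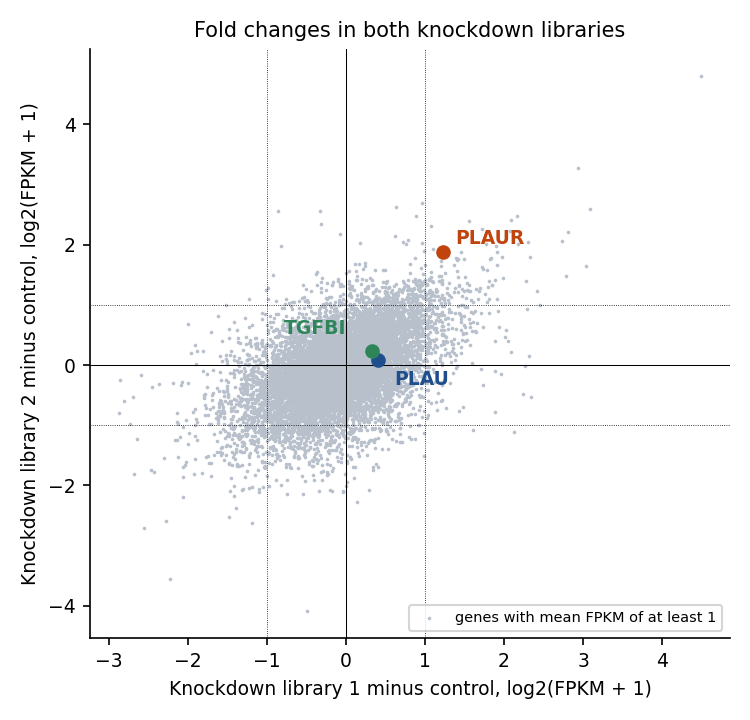
Difference from the control in log2(FPKM + 1) for knockdown library 1 (horizontal) and knockdown library 2 (vertical), 1 grey point per tested gene, with the 3 genes in colour and dotted lines at a 2-fold difference. PLAUR lies at 1.22 and 1.87, beyond the dotted lines, while PLAU (0.40 and 0.09) and TGFBI (0.33 and 0.24) lie inside the cloud.

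The other genes around plasminogen activation are described for those reported here, which are not the whole list. Of these, 17 besides PLAU and PLAUR were tested, and limma called none of them higher or lower. No other tool was run. In both knockdown libraries 5 were higher and 5 lower than the control, and 7 lay on opposite sides, against 31.7%, 37.6% and 30.7% of all tested genes. Their median log2 difference was 0.05, and the median over all tested genes was -0.05. Of these 17 genes, CTSL was at least 2-fold higher in both.

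CTSL encodes cathepsin L, a lysosomal cysteine protease that can activate pro-urokinase. It was at 56.9 and 58.8 FPKM in knockdown libraries 1 and 2, against 22.3 FPKM in the control. The knockdown libraries were nearly equal and both above the control, with a log2 difference of 1.33 ± 0.39 (SE) and a limma adjusted p of 0.499, which did not pass. The related CTSB, cathepsin B, was at 84.0 and 53.0 FPKM against 55.6 FPKM, on opposite sides of the control. ST14, matriptase, a membrane protease that also activates pro-urokinase, was at 66.6 and 102.8 FPKM against 76.8 FPKM, on opposite sides as well. The tissue-type activator PLAT was at 5.08 and 3.15 FPKM against 3.97 FPKM, so its knockdown libraries too lay on either side of the control.

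The serpins reported here did not share a direction. SERPINI1, neuroserpin, an inhibitor of the tissue-type activator, was at 5.83 and 7.17 FPKM in knockdown libraries 1 and 2, against 3.34 FPKM in the control (log2 difference 0.78, limma adjusted p 0.772). SERPINE2, protease nexin 1, was at 28.3 and 43.2 FPKM against 33.8 FPKM. SERPINF2, the plasmin inhibitor, was at 1.28 and 3.11 FPKM against 1.71 FPKM. SERPINI1 alone of these 3 had both knockdown libraries on the same side of the control. SERPINB2, a second urokinase inhibitor, was at or under 0.101 FPKM in every library and was not tested.

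Among cell surface proteins that bind plasminogen, ANXA2, annexin A2, was at 355 and 293 FPKM in knockdown libraries 1 and 2, against 226 FPKM in the control. Its partner S100A10 was at 517 and 119 FPKM against 260.0 FPKM, high in library 1 and low in library 2. ENO1, an enolase that also binds plasminogen at the surface, was at 730 and 834 FPKM against 601 FPKM. ANXA2 and ENO1 have processed pseudogene copies, so their values are uncertain. None of these passed the test, with limma adjusted p-values of 0.853, 0.994 and 0.908.

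Endocytic receptors were lower or near the control. MRC2, a collagen receptor that associates with the urokinase receptor, was at 1.75 and 5.09 FPKM in knockdown libraries 1 and 2, against 9.49 FPKM in the control (log2 difference -1.36, limma adjusted p 0.628). LRP1, which clears protease and inhibitor complexes, was at 2.48 and 2.71 FPKM against 3.44 FPKM. LYPD3, a relative of the urokinase receptor, was at 1.22 and 3.23 FPKM against 4.45 FPKM. All 3 were lower in both knockdown libraries, as were 37.6% of all tested genes, and none passed the test. Of the other tested genes listed for clearance, IGF2R was lower in both, at 17.1 and 19.3 FPKM against 21.5 FPKM. LRPAP1 was higher in both, at 11.5 and 17.1 FPKM against 11.2 FPKM. Vitronectin, VTN, which binds the receptor, was listed at 0 in both knockdown libraries and at 0.0755 FPKM in the control.

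**Figure D4:**
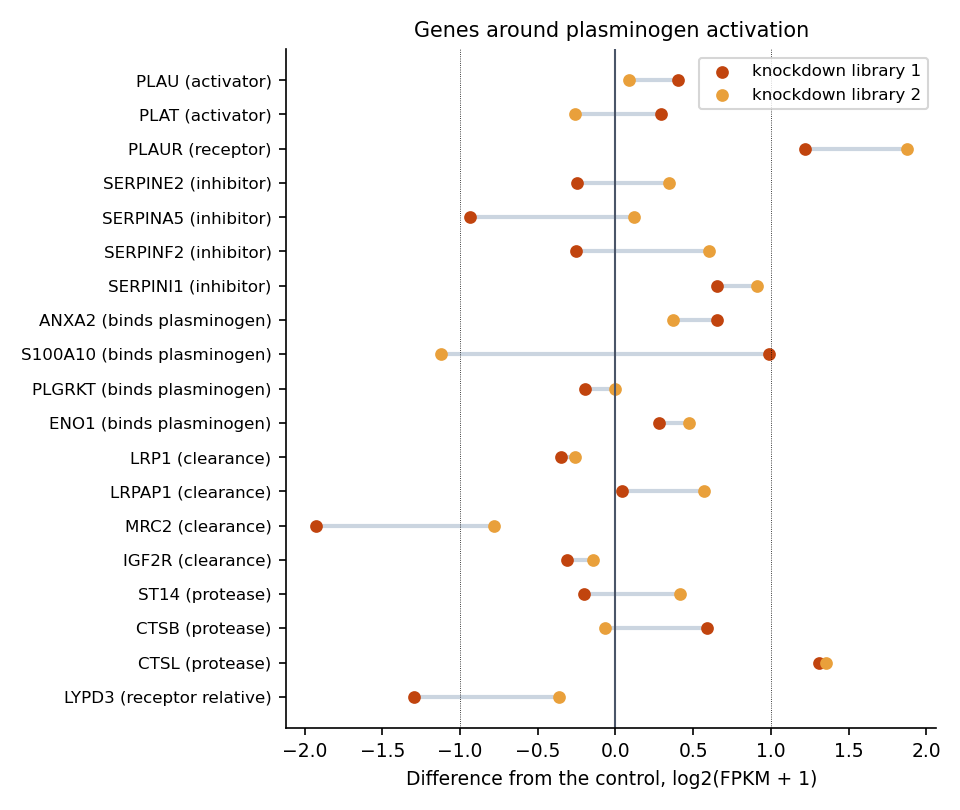
Difference from the control in log2(FPKM + 1) for the 19 tested genes around plasminogen activation that are reported here, with knockdown library 1 in orange-red, knockdown library 2 in yellow, a grey bar joining them and dotted lines at a 2-fold difference. Of the genes drawn, PLAUR (1.22 and 1.87) and CTSL (1.31 and 1.36) are those with both points right of the 2-fold line, and S100A10 (0.99 and -1.12) spans the control.

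The integrins and receptors that partner the urokinase receptor or bind TGFBI differed gene by gene. Of 11 tested, limma called none higher or lower. In both knockdown libraries 4 were higher and 3 lower, and 1 was at least 2-fold higher, against 31.7%, 37.6% and 1.21% of all tested genes, so the list's shares higher and lower were near those of all genes. That gene was ITGA2, the collagen-binding alpha 2 subunit, at 44.4 and 28.7 FPKM against 5.45 FPKM in the control (log2 difference 2.51, limma adjusted p 0.173). ITGA6, a laminin-binding subunit, was at 52.2 and 34.6 FPKM against 17.3 FPKM. ITGAV, the subunit of vitronectin receptors, was at 12.4 and 12.0 FPKM against 17.9 FPKM. ITGB1, the common beta subunit, was at 145 and 146 FPKM against 146 FPKM. ITGB8 was lower in both, at 1.06 and 1.09 FPKM against 2.69 FPKM, with FPKM ratios of 0.395 and 0.405. On the log2(FPKM + 1) scale its differences were -0.84 and -0.82. EGFR, through which the urokinase receptor is known to signal, was at 17.5 and 20.1 FPKM against 12.4 FPKM, and CAV1, caveolin-1, was at 124 and 105 FPKM against 219 FPKM.

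Matrix metalloproteases, some of them activated by plasmin, were mostly at low levels. MMP1, MMP2, MMP3, MMP7, MMP9, MMP10, MMP13 and MMP24 were under 1 FPKM in every library. MMP15 was at 13.9 and 19.4 FPKM in knockdown libraries 1 and 2, against 26.6 FPKM in the control, lower in both. MMP14, the membrane-anchored collagenase, was at 7.54 and 4.38 FPKM in knockdown libraries 1 and 2, against 14.6 FPKM in the control (log2 difference -1.20, limma adjusted p 0.623). TIMP2, the inhibitor that pairs with MMP14, was at 20.4 and 21.5 FPKM against 68.5 FPKM (log2 difference -1.67 ± 0.39 (SE), limma adjusted p 0.381). TIMP1 was at 94.2 and 153 FPKM against 66.3 FPKM, so the TIMP genes differed in opposite directions. Of 11 protease and inhibitor genes tested, limma called none higher or lower, and 6 were lower and 2 higher in both libraries. Over all tested genes, 37.6% were lower and 31.7% higher in both libraries. TIMP2 was the 1 gene at least 2-fold lower in both, as were 1.7% of all tested genes.

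**Figure D5:**
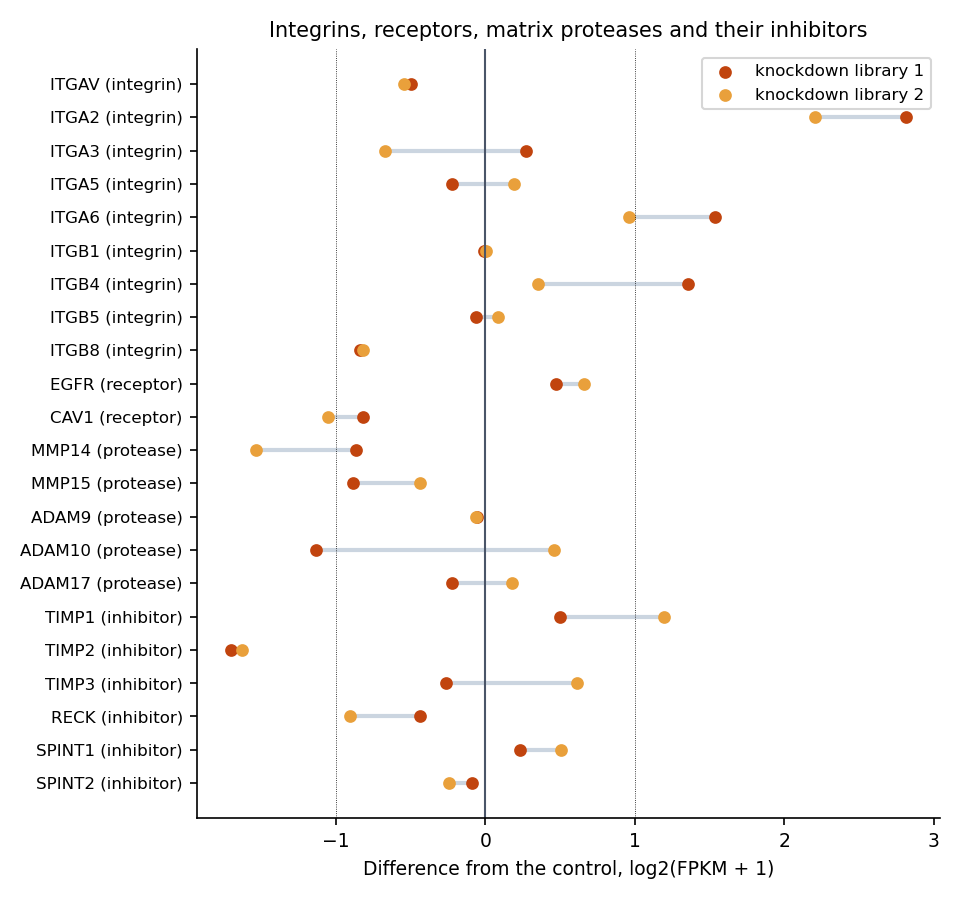
Difference from the control in log2(FPKM + 1) for 11 integrin and receptor genes and 11 protease and inhibitor genes, with knockdown library 1 in orange-red, knockdown library 2 in yellow and dotted lines at a 2-fold difference. ITGA2 (2.81 and 2.20) is the gene with both points right of the 2-fold line, and TIMP2 (-1.70 and -1.63) the one with both points left of it.

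Matrix genes were lower than the control or on either side of it. Of 13 tested genes of the fasciclin and matrix list, 0 were higher in both knockdown libraries, 7 were lower in both and the other 6 had 1 library on either side of it, against 31.7%, 37.6% and 30.7% of all tested genes. Their median log2 difference was -0.32 and limma called none of them higher or lower. FN1, fibronectin, was at 0.815 and 1.83 FPKM in knockdown libraries 1 and 2, against 5.70 FPKM in the control, and COL4A3, a basement membrane collagen chain, was at 0.633 and 0.663 FPKM against 4.75 FPKM. These 2 were at least 2-fold lower in both, as were 1.7% of all tested genes. LAMA5, a laminin chain, was at 34.9 and 20.9 FPKM against 67.7 FPKM. COL1A1, also a fibroblast marker, was at 4.64 and 8.38 FPKM against 13.4 FPKM. COL1A1 made up nearly all of the summed fibroblast markers, which were lower in the knockdown libraries too. COL3A1, another fibroblast collagen, was at 0 and 0.0624 FPKM against 0.559 FPKM. All are levels in libraries labelled HCT116, and no source in other cells was tested. STAB1, another fasciclin-domain gene, was at 0.0366 and 0.0276 FPKM against 0.00742 FPKM, under the filter like TGFBI.

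Genes of the TGF-beta pathway, from which TGFBI takes its name, lay on both sides of the control. Of 24 tested and reported here, 11 were higher and 8 lower in both knockdown libraries, against 31.7% and 37.6% of all tested genes. None of the 24 was called higher or lower by limma. TGFB1, the main ligand, was at 25.4 and 34.0 FPKM in knockdown libraries 1 and 2, against 16.4 FPKM in the control. TGFBR2 was at 12.8 and 12.2 FPKM against 8.04 FPKM, while the partner receptor TGFBR1 was at 2.16 and 3.02 FPKM against 5.64 FPKM. ID2, an inhibitor of helix-loop-helix factors, was at 206 and 125 FPKM against 58.0 FPKM. On the log2(FPKM + 1) scale ID2 was the 1 gene of these 24 at least 2-fold higher in both. LTBP4, which anchors latent TGF-beta in the matrix, was at 27.9 and 24.9 FPKM against 61.5 FPKM and was the 1 gene of them at least 2-fold lower in both. Of all tested genes, 1.21% were at least 2-fold higher and 1.7% at least 2-fold lower. SMAD7, a feedback target of the pathway, was at 1.46 and 1.94 FPKM against 1.69 FPKM, on either side of the control. CCN2, also listed as a target, was at 2.02 and 2.05 FPKM against 0.735 FPKM. Its FPKM ratios were 2.75 and 2.79, and the added 1 held its log2 differences at 0.80 and 0.81. Among the other tested targets listed, SKI, ID1 and ID3 were higher in both, ID3 barely so in library 2. SKIL and TGIF1 were lower in both, and SMAD6 and BAMBI lay on either side.

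Families of factors known to act on the urokinase and receptor promoters were mixed. Of 16 tested, 8 were higher and 4 lower in both knockdown libraries, against 31.7% and 37.6% of all tested genes. None of the 16 was called higher or lower by limma. The AP-1 subunit FOSL1 was at 163 and 61.2 FPKM in knockdown libraries 1 and 2, against 19.0 FPKM in the control, and was the 1 gene at least 2-fold higher in both, as were 1.21% of all tested genes. The AP-1 subunits FOSL2, JUNB and FOSB were higher in both knockdown libraries too, by less than FOSL1. FOSL2 was at 17.1 and 12.95 FPKM against 7.86 FPKM. JUNB was at 70.8 and 70.8 FPKM against 53.4 FPKM, and FOSB at 5.29 and 3.58 FPKM against 3.43 FPKM. FOS and JUND, also AP-1 subunits, were lower in both knockdown libraries. FOS was at 32.5 and 11.6 FPKM against 46.8 FPKM, and JUND at 68.3 and 49.7 FPKM against 104.3 FPKM. JUN lay on opposite sides of the control. ETS2 was at 7.29 and 21.0 FPKM against 6.03 FPKM (limma adjusted p 0.784). The GC box factors SP1 and SP3 were lower in both knockdown libraries, SP1 at 18.7 and 19.7 FPKM against 31.7 FPKM and SP3 at 8.43 and 8.55 FPKM against 14.6 FPKM.

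The genes whose pair of differences was nearest to each of the 3 genes were taken among genes with a mean FPKM of at least 10, by Euclidean distance over the 2 knockdown libraries. For PLAUR, with 5817 genes compared, they were EMP1, F3 and UXS1, at distances of 0.13, 0.14 and 0.20. EMP1, an epithelial membrane protein, was at 32.2 and 57.7 FPKM against 14.5 FPKM in the control. F3, tissue factor, the cell surface starter of blood coagulation, was at 19.5 and 28.6 FPKM against 7.90 FPKM. UXS1, an enzyme of UDP-xylose synthesis, was at 16.5 and 21.9 FPKM against 5.66 FPKM. Each had library 2 above library 1 and both above the control. For PLAU the nearest were COX7B, ACADM and GPAT4, and for TGFBI they were DNAAF2, EIF4E2 and COX6A1, all within 0.02, where many genes lie close together. For TGFBI the likeness comes from the added 1, which shrinks its FPKM ratios of 6.91 and 5.12, while DNAAF2 was at 11.9 and 11.2 FPKM against 9.32 FPKM. Likeness over 2 libraries that share a control is a description of these libraries.

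The chromosomal neighbours of the 3 genes lay on both sides of the control. For each gene the 4 nearest tested genes on either side were taken. Of the 8 around PLAUR, 2 were higher and 4 lower in both knockdown libraries, with a median log2 difference of -0.26, and 31.7% and 37.6% of all tested genes did so. KCNN4, a calcium-activated potassium channel gene after PLAUR on the chromosome, was at least 2-fold higher in both, with differences of 1.14 and 1.27 and a limma adjusted p of 0.580, and was chosen for mention after its values were seen. The other neighbours of PLAUR had mean differences from -0.89 to 0.26. Around PLAU the differences ran from -1.05 for CAMK2G to 0.66 for VCL, which encodes vinculin. Around TGFBI they ran from -0.81 to 0.05, and 0 of the 8 were higher and 4 lower in both.

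In the gene ontology terms deposited with the table, PLAU and PLAUR shared 11 terms, among them fibrinolysis, which 14 genes of the table carried, and focal adhesion, which 399 carried. All 3 genes shared 3 broad terms, protein binding, extracellular region and plasma membrane. PLAU and TGFBI shared 5 terms and PLAUR and TGFBI shared 3.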

How the data were processed

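Polyadenylated RNA libraries of HCT116 cells were analysed, 2 with shRNA against circRAPGEF5 and 1 control. Per the labels' protocols, TRIzol and a mirVana kit were used for RNA, and the TruSeq Stranded mRNA LT kit for libraries. The authors deposited FPKM values per gene, with gene ontology terms. The submitters' processing notes name HISAT2, Trimmomatic and GRCh38.p13, and anything further on versions, counting, strand or gene models was not given in the sources used here.

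After removal of 1 depth factor per library, FPKM ratios were ratios of whole numbers in 100% of genes (relative tolerance 1e-12), which gave the smallest whole reads. Knockdown depths were 1.01 and 1.07 times the control. Counting intervals are exact (Clopper-Pearson, 95%) and cover counting error only.

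Genes with a mean FPKM of at least 1 (11216) were tested on log2(FPKM + 1) with limma 3.58.1 in R 4.3.3 (mean-variance trend, 10.92 prior and 1 residual degree of freedom), knockdown against control, with Benjamini-Hochberg adjustment over all tested genes and a threshold of 0.05. The fit takes the spread of the single control to equal that of the knockdown group. As no label names separate cultures, p-values reflect the spread between libraries only, and this may be technical. The step was run on simulated data whose spread was drawn from the fitted prior, the same for control and knockdown. Such data cannot check the equal spread assumed for the single control. Other pseudocounts, filters, scalings, priors and fold thresholds were tried.

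The 3 genes and the lists were chosen with earlier results of these data known. Genes of the plasminogen list could all be named. Of other lists up to 6 were eligible, those farthest from the control by the nearer library, plus any at least 2-fold in both, and further genes named for their role were chosen after their values were seen. The nearest genes in pattern were the first 3 per gene. Some results for the plasminogen and TGF-beta lists are not reported here and are left out of the counts and medians of those lists, after values were seen, so these describe the genes reported and not the whole lists. Counts over all genes are complete. Coordinates are from GENCODE 29, promoter sequences from RefSeq (GRCh38.p14), and figures were drawn with matplotlib 3.10.9.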

Additional observations from a re-analysis of the deposited data

How the results depend on the processing

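No paired analysis was possible because the control has a single library and shares fewer than 2 replicate numbers with the knockdown group. PLAUR, with a mean log2 difference of 1.55, ran from 1.13 to 1.70 under other pseudocounts and scalings, and PLAU, with 0.24, ran from 0.17 to 0.33. With 1 knockdown library alone PLAUR ran from 1.22 to 1.87 and PLAU from 0.089 to 0.40, the lower PLAU value being without library 1. TGFBI, with a log2 difference of 0.28, was at 1.35 with a pseudocount of 0.1 and at 0.063 with a pseudocount of 5, since its FPKM is far below the pseudocount of 1. The 2 genes that limma called higher became 1 with a pseudocount of 5, median-ratio rescaling, no trend or a robust prior, and 0 with no filter, quantile normalization or a prior of 5 degrees of freedom. Genes called lower stayed at 0. With 1 knockdown library left out no residual degree of freedom remains, so limma was not run.

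Genes at least 2-fold in both knockdown libraries (136 higher, 191 lower) numbered 62 higher and 39 lower with a pseudocount of 5, 131 higher and 107 lower with a mean FPKM of at least 5, and 186 higher and 138 lower with median-ratio rescaling, which turns the balance to more higher than lower in each. They numbered 193 higher and 338 lower with a pseudocount of 0.1, and 619 higher and 830 lower at 1.5-fold. With 1 knockdown library alone they ran from 357 to 461 higher and from 666 to 680 lower. Among the plasminogen genes reported, PLAUR and CTSL included, 2 higher genes became 1 with a pseudocount of 5, and 0 lower genes became 1 at 1.5-fold and 1 to 2 with 1 library alone. In the protease list 1 lower gene became 2 at 1.5-fold and 2 with either library alone, and 0 to 1 were higher with 1 library alone. In the integrin list 1 higher gene became 2 with median-ratio rescaling or at 1.5-fold and 1 to 3 with 1 library alone, and 0 lower genes became 1 with a pseudocount of 0.1, 2 at 1.5-fold and 0 to 1 with 1 library alone. In the matrix list 2 lower genes became 0 with a pseudocount of 5 or a mean FPKM of at least 5, 4 at 1.5-fold and 3 to 5 with 1 library alone, where 0 to 2 were higher. Among the TGF-beta genes reported 1 higher gene became 2 with a pseudocount of 0.1, 0 with quantile normalization, 3 at 1.5-fold and 2 to 3 with 1 library alone, and 1 lower gene became 2 at 1.5-fold and 1 to 2 with 1 library alone. Among promoter regulators 1 higher gene became 2 at 1.5-fold and 2 with either library alone, and 0 lower genes became 3 at 1.5-fold and 0 to 2 with 1 library alone.

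The median log2 difference of all tested genes (-0.048) was -0.060 and -0.026 with pseudocounts of 0.1 and 5, -0.030 with no filter, 0.020 with a mean FPKM of at least 5, 0.032 with median-ratio rescaling, 0.0078 with quantile normalization and -0.044 to -0.041 with 1 library alone. The plasminogen genes reported (0.11) were at 0.031 with no filter, 0.26 with a mean FPKM of at least 5, 0.20 with median-ratio rescaling and 0.045 to 0.12 with 1 library alone. The protease list (-0.17) was at -0.024 with no filter, -0.075 with median-ratio rescaling, -0.30 with quantile normalization and -0.27 to -0.066 with 1 library alone. The integrin list (-0.0020) was at 0.088 with median-ratio rescaling, -0.079 with quantile normalization and -0.0090 to 0.083 with 1 library alone. The matrix list (-0.32) was at -0.10 with no filter, -0.17 with a pseudocount of 5, -0.19 with a mean FPKM of at least 5 and -0.70 to -0.36 with 1 library alone. The TGF-beta genes reported (-0.039) were at -0.11 with no filter, 0.31 with a mean FPKM of at least 5, 0.033 with median-ratio rescaling, 0.12 with quantile normalization and 0.085 to 0.13 with 1 library alone. The causes of these shifts were not tested. Depth limits TGFBI, whose control value rests on 2 reads.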
